A study of Homo sapiens with 4 samples.

Results

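The pair examined here consists of 2 two-colour arrays of the human lymphoma line OCI-Ly3 (diffuse large B-cell lymphoma, activated B-cell type), both after 2 days of doxycycline. Its members are the 11647 probes, of 15246 in the series, that had a log ratio on both arrays, whatever its value. Of these, 7994 carried a single gene symbol and gave 3992 of the series' 4604 genes, 1928 with 1 probe and 2064 with 2 or more. The value described is a difference of 2 log2 ratios, that of the array with 3 h of IKKb inhibitor minus that of the array without it.

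In the study, as it is known apart from the labels, doxycycline switches on a short hairpin RNA against IKKa in these cells; the labels name the agent, at 20 ng/ml, and not the hairpin. On the array without inhibitor, cells after 2 days of doxycycline (Cy5) were set against untreated cells (Cy3). On the other array, cells given doxycycline for 2 days and then 3 h of MLN120b, which inhibits IKKb, at 12.5 uM (Cy5) were set against cells given the inhibitor alone for 3 h (Cy3). The labels count those 3 h into the doxycycline time, which was longer by 3 h on this array. The inhibitor was in both channels, so each log2 ratio compares cells with and without doxycycline, and the difference says how far that ratio on the array with inhibitor lay from that on the other. It does not measure the effect of the inhibitor itself. Doxycycline without a hairpin, or with an unrelated one, was not among the 4 arrays, and a hairpin effect and a doxycycline effect cannot be told apart. Each condition was 1 array of 1 line, so there is no replicate spread and no test. The spread given is over the probes of a gene, which share the RNA, the labelling and both arrays, and it covers probe error only.

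IKKa, encoded by CHUK, and IKKb are the 2 kinases of the IkB kinase complex, held together by the scaffold NEMO, encoded by IKBKG. In the classical pathway the complex marks IkBa for destruction and so frees NF-kB dimers to enter the nucleus. There they switch on their own inhibitors, among them NFKBIA and TNFAIP3, along with chemokines, cytokines and survival genes. The activated B-cell type of lymphoma is known for constant activity of this pathway, and its inhibitor transcripts are short-lived, so they are often read as a gauge of the pathway. The series title frames the question as whether IKKa takes over classical signalling while IKKb is inhibited.

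A difference below 0 means that the ratio was lower on the array with inhibitor, on whichever side of 0 the 2 ratios lay. A ratio below 0 means that doxycycline-treated cells were lower than their partners without it. This direction is the likely one and not stated in any source used here: red over green is the common order, and with it the ratios of CHUK are below 0. Turned, every lower value would be a higher one. The base of the logarithm is likewise not stated and was taken as 2, the usual one for such arrays, so that every fold size rests on it. Because a ratio holds no level, the B-cell label could not be checked against markers. CD79A, CD79B, CD22, MS4A1 and PAX5, which define B cells, had differences between -0.19 and 0.20.

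CHUK, the target of the hairpin, had log2 ratios of -0.34 and -0.84 for its 2 probes without inhibitor and of -1.14 and -1.45 with inhibitor. Both probes lay further below 0 on the inhibitor array, and their values on the 2 arrays did not overlap. The mean went from -0.59 to -1.30, a difference of -0.71 ± 0.13 (SD over 2 probes), or 1.64-fold. With both arrays scaled to equal spread, the difference was -0.35 and no longer past 1.5-fold. Unscaled, CHUK was thus itself among the 10 lowest genes of the pair whose probes agreed. The part of this lower CHUK ratio in the differences of the other genes was not tested.

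Over all 3992 genes the difference was centred near 0, with a median of 0.007 and a median absolute deviation of 0.152, and 1931 genes lay below and 2058 above it. Beyond 1.5-fold, 62 genes were lower with inhibitor (1.55% of genes) and 105 were higher (2.63%). Of these, 51 of the lower and 83 of the higher genes rested on 1 probe. Among the 2064 genes with 2 or more probes, 11 were lower by more than 1.5-fold with every probe on the same side of 0 (0.533%) and 16 were higher (0.775%). The inhibitor array was the wider of the 2: the median absolute deviation over probes was 0.192 there and 0.128 without inhibitor, and the ratios of genes correlated at r = 0.49 across 3992 genes.

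**Figure D1:**
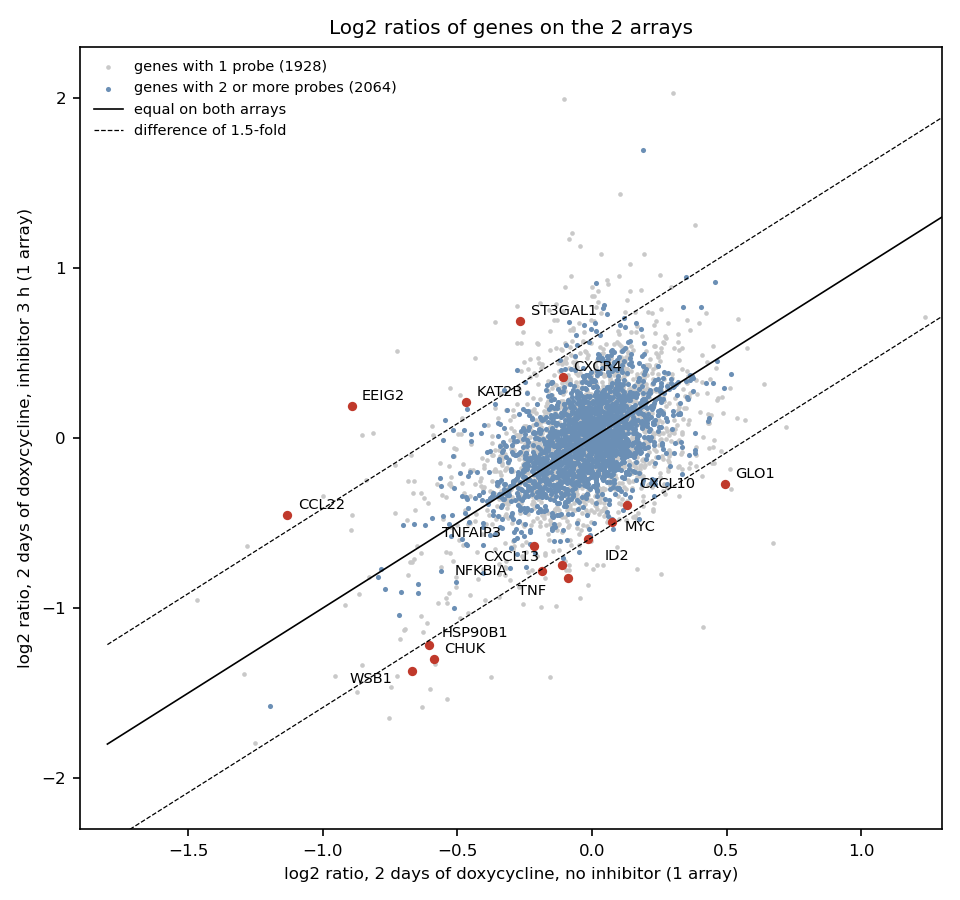
Each point is a gene, with its log2 ratio (doxycycline over none, mean of its probes) without inhibitor on the horizontal axis and with 3 h of inhibitor on the vertical axis; grey genes have 1 probe, blue genes 2 or more, and red genes are labelled. Points below the lower dashed line were lower with inhibitor by over 1.5-fold: NFKBIA, TNF and CXCL13 lie there at ratios near 0 without inhibitor, while CCL22 and EEIG2 lie above the upper line; 1 gene, EDEM1 at -3.59 with inhibitor, falls outside the plot.

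The only internal check of this pair is whether probes of the same gene agree, and past 1.5-fold they did so little more often than not. Where a probe differed by more than 1.5-fold, 527 of 984 other probes of its gene (53.6%) had the same sign, and the median of the others' mean was 0.04 in the direction of the probe, whose own median size was 0.71. Past 2-fold the share was 42.3%, or 66 of 156. For smaller differences it was 52.5% under 0.2, 57.2% from 0.2 to 0.4 and 60.1% from 0.4 to 1.5-fold. Probes that also had a value on both 3-day arrays did better, at 56.7% past 1.5-fold, than probes that lacked one, at 46.5%. The probes that lacked such a value made up 16.0% of the pair and 61.5% of the 109 probes past 2-fold. Why some cells of the deposited table are empty was not stated. The pooled SD of single probes within a gene was 0.298, and the SD between the means of genes with 2 or more probes was 0.216. The second is of means, which vary less than single probes, so the 2 values cannot be set directly against each other.

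The ratios of each array agreed better between probes than their difference did. Among probes with values on all 4 arrays, a probe past 1.5-fold shared its sign with 73.7% of the other probes of its gene on the array without inhibitor, with 68.7% on the array with inhibitor and with 56.6% in their difference. In the matching difference at 3 days, 24 h of inhibitor minus none, the share was 65.6%. For probes of any size these shares were, in the same order, 57.8%, 59.8%, 55.5% and 57.6%. Here the other probes, too, had values on all 4 arrays. Genes whose several probes had the same sign are therefore given first below, some of them with wide spreads, and single-probe genes are named as such. This rule is weak, most of all for genes of 2 probes: 818 of all 2064 genes with 2 or more probes (39.6%) met it. It is more easily met where the mean is large: past 1.5-fold, all 11 lower genes and 16 of 22 higher ones did so.

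**Figure D2:**
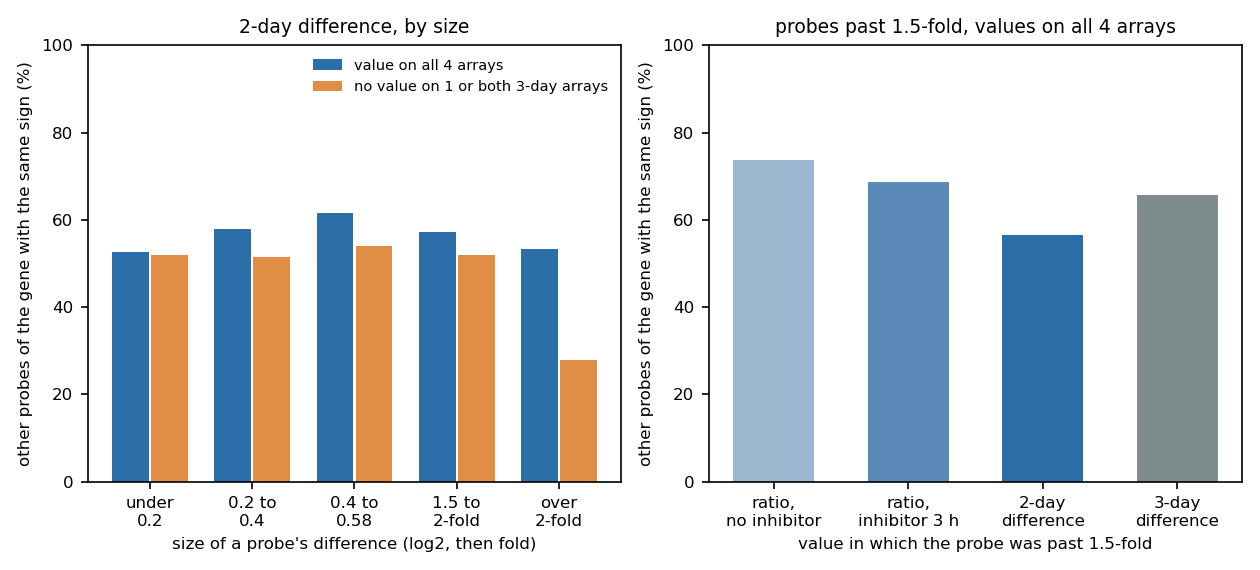
Left, for probes grouped by the size of their 2-day difference, the bars give the percentage of other probes of the same gene with the same sign, for probes with a value on all 4 arrays (blue) and probes without one on a 3-day array (orange). Right, the same percentage for probes past 1.5-fold in each array's own ratio and in the 2-day and 3-day differences; the 2-day difference stands lowest, at 56.6%.

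Among genes with agreeing probes, the largest differences below 0 included TNF, CXCL13 and NFKBIA, which stand in the NF-kB lists, beside genes of other functions. The 10 largest were GLO1 (-0.76 ± 0.25, 3 probes), TNF (-0.74 ± 0.39, 4), CHUK, WSB1 (-0.70 ± 0.10, 2), EDEM3 (-0.65 ± 0.11, 2), CXCL13 (-0.64 ± 0.02, 2), CGGBP1 (-0.62 ± 0.44, 2), HSP90B1 (-0.61 ± 0.14, 2), WDR3 (-0.61 ± 0.34, 2) and NFKBIA (-0.60 ± 0.09, 5). GLO1 detoxifies methylglyoxal, WSB1 is a substrate receptor of a ubiquitin ligase, and EDEM3 and HSP90B1 work in protein folding and disposal in the endoplasmic reticulum. Their ratios differed: TNF (-0.09), CXCL13 (-0.11), CGGBP1 (-0.05), WDR3 (0.08) and NFKBIA (-0.19) were within 0.2 of 0 without inhibitor, WSB1 and HSP90B1 were already at -0.67 and -0.60 without it, and GLO1 went from 0.49 to -0.27. Of the 11 genes past 1.5-fold, 5 were past that size on the inhibitor array only, 3 on both arrays, 3 on neither and none on the array without inhibitor only. After scaling to equal spread, 3 genes with several probes were lower by over 1.5-fold in place of 11, with WSB1 at -0.30, HSP90B1 at -0.26, NFKBIA at -0.42, CXCL13 at -0.48 and TNF at -0.58. Without the probe farthest from the others, NFKBIA stood at -0.57 and TNF at -0.58, both just short of 1.5-fold, and GLO1 at -0.91.

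The 10 largest differences above 0 had probes that agreed less. EEIG2 (1.08 ± 0.66), ST3GAL1 (0.95 ± 0.85), IFIT5 (0.77 ± 0.74), CD226 (0.74 ± 0.41), FLT1 (0.69 ± 0.74), FCHSD2 (0.68 ± 0.30), FGF9 (0.67 ± 0.26) and RPRD2 (0.66 ± 0.67) had wide spreads, over 3 probes for ST3GAL1 and 2 for the others. Those of the chemokine CCL22 (0.68, probes at 0.68 and 0.68) and the histone acetyltransferase KAT2B (0.68 ± 0.03) agreed within 0.05. On both of these the array without inhibitor was the low one: KAT2B had -0.61 and -0.33 without inhibitor and 0.05 and 0.38 with it. With only probes measured on all 4 arrays, IFIT5 stood at 0.24, CD226 at 0.45, FGF9 at 0.49 and EEIG2 at 0.61. Without its farthest probe ST3GAL1 stood at 0.50.

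**Figure D3:**
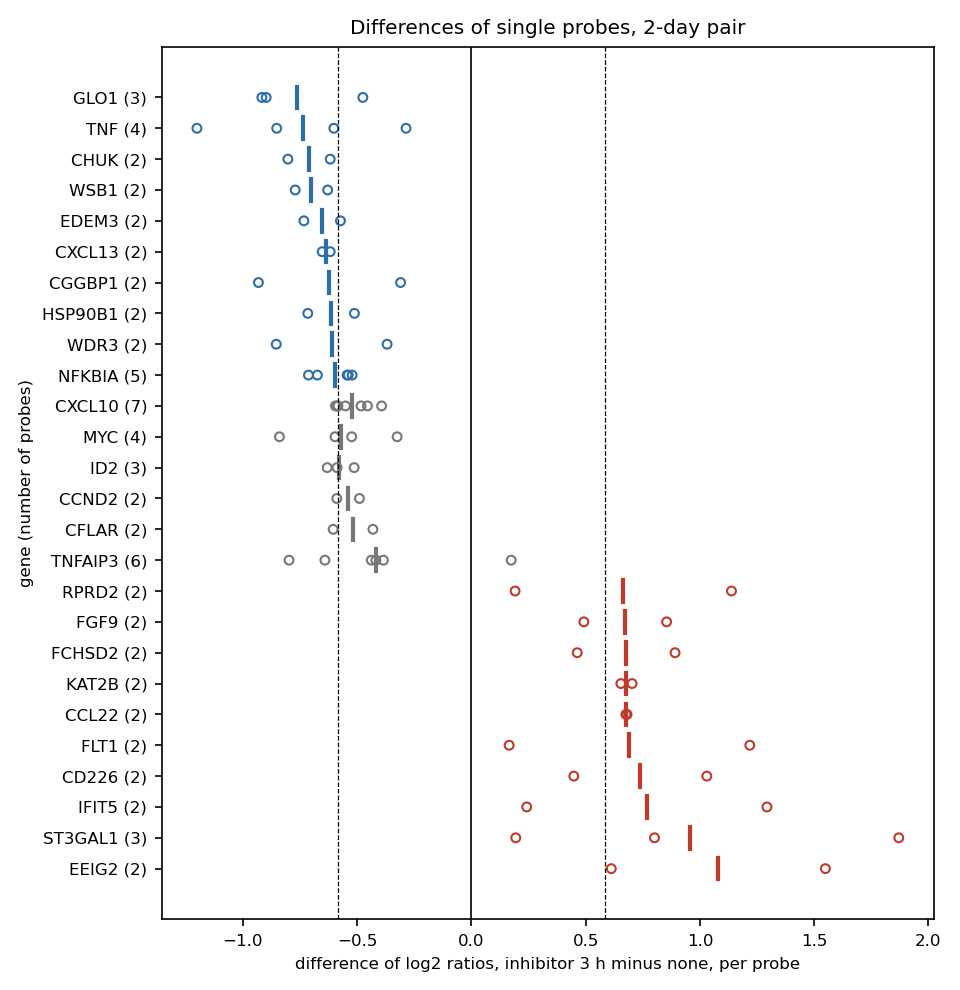
Open circles are the differences of single probes (inhibitor 3 h minus none, log2), short bars the mean of a gene, and dashed lines 1.5-fold; blue genes are the 10 lowest and red genes the 10 highest among genes whose probes all had the same sign, and grey genes are further NF-kB targets and related genes. The probes of NFKBIA, CXCL10, ID2 and CXCL13 lie close together, while those of IFIT5, FLT1 and ST3GAL1 are spread over more than 1 log2 unit.

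Few genes had many probes that all lay on the same side. Of 230 genes with 5 or more probes, 20 (8.70%) had every probe on the same side of 0, 11 lower and 9 higher, and these were singled out after their values were seen. NFKBIA (-0.60, 5 probes) and CXCL10 (-0.52, 7 probes) were the lowest of them, followed by NOP2, a ribosomal RNA methyltransferase (-0.35), SIAH2, a ubiquitin ligase (-0.33), IL2RG, the shared gamma chain of cytokine receptors (-0.31), CSNK2B (-0.24), NUP153 (-0.22), ARHGDIB (-0.21), HLA-DQA1 (-0.20), IFNGR2 (-0.19) and PPP2CA (-0.18). On the other side stood CXCR4, the receptor of the chemokine CXCL12 (0.47, 7 probes), DDIT3, the stress factor CHOP (0.35), SH3BP5 (0.33), CTSB (0.30, 8 probes), ZFP36, which speeds decay of AU-rich transcripts (0.26, 8 probes), MAPK9 (0.18), CD47 (0.15), ATRX (0.09) and PRP4K (0.09). HLA-DQA1 has near-identical relatives, and its probes may not separate them.

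The list of NF-kB feedback inhibitors also holds related genes that are not such inhibitors, among them TRAF1 and TNFAIP8. It had the lowest median of the 27 gene lists, -0.26 over 9 measured of 12 genes, against 0.007 over all genes. Of the 9, 6 lay below 0 (48.4% over all genes). That rank did not hold throughout: after scaling to equal spread the list stood at -0.15 and that of MYC and ribosome biogenesis genes at -0.26, and with the median of probes the 2 lists stood at -0.23 and -0.24. NFKBIA, which encodes IkBa, had probe ratios of -0.20, -0.06, -0.52, -0.14 and -0.02 without inhibitor and, in the same order, of -0.91, -0.73, -1.06, -0.68 and -0.54 with it. All 5 probes were lower on the inhibitor array, by 0.52 to 0.71, and every value there was below every value on the other array. The mean went from -0.19 to -0.78, 1.51-fold lower. TNFAIP3, which encodes the deubiquitinase A20, differed by -0.42 ± 0.33, with 5 of 6 probes between -0.80 and -0.39 and the sixth at 0.17. That sixth probe and another were low already without inhibitor, at -0.73 and -0.47. NFKBIE, which encodes IkBe, differed by -0.28 ± 0.22, NFKBID by -0.23 ± 0.31 and CYLD, on 1 probe, by -0.50. TRAF1, an adaptor of TNF receptors, differed by -0.26 ± 0.28 with probes of both signs. BCL3 (0.16), NFKBIB (0.19) and TNFAIP8 (0.37) lay above 0 with probes of both signs. NFKBIA was the only member of the list past 1.5-fold.

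The chemokine and cytokine list was split: 14 of 25 measured members lay below 0, its median was -0.003, 3 members were lower and 2 higher beyond 1.5-fold. Over all genes 48.4% lay below 0, 1.55% were lower and 2.63% higher beyond 1.5-fold. CXCL10, a chemokine of the CXCR3 receptor, had 7 probes between -0.12 and 0.29 without inhibitor and between -0.57 and -0.10 with it. Each probe was lower with inhibitor, by 0.39 to 0.60, although 1 probe without inhibitor, at -0.12, lay below the highest with inhibitor. The difference was -0.52 ± 0.08. TNF, the founding cytokine of its family and itself an inducer of NF-kB, had 0.26, -0.02, -0.28 and -0.32 without inhibitor and -0.94, -0.87, -0.88 and -0.61 with it. Its 2 groups of values did not overlap, and its mean went from -0.09 to -0.83, 1.66-fold. CXCL13, the B-cell attractant of follicles, had -0.13 and -0.09 without and -0.79 and -0.71 with inhibitor. EBI3, a cytokine subunit, differed by -0.62 on 1 probe, CCL2 by -0.39 with both probes below 0, and CCL3 by -0.23 ± 0.70 with probes from -1.04 to 0.23.

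CCL22, which attracts CCR4-bearing cells, stood on the other side, with -1.28 and -0.98 without inhibitor against -0.61 and -0.30 with it. Both probes were low on both arrays and closer to 0 with inhibitor, by 0.68, so the value above 0 stands for a smaller lowering and not for a ratio above 0. IL23A, the p19 subunit of interleukin 23, went from -0.09 to 1.17 on 1 probe, a difference of 1.25. IL15 differed by 0.48 with both probes above 0, CCL4 by 0.30 ± 0.48 over 6 probes, IL6 by 0.12 ± 0.66 over 5, LTA by 0.14 on 1 probe, IL10 by -0.01 on 1 and LTB by -0.003 ± 0.19 over 7. IL6 turned to -0.22 with the 3 probes measured on all 4 arrays, and CCL3 to 0.17 without its farthest probe. CCL3 and CCL4 each have a near-identical copy, which these probes may not separate.

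To show the regulatory sequence of NF-kB targets on both sides of the difference whose probes agreed, the 250 bases before the RefSeq start of 3 lower genes and of CCL22 are printed 5′ to 3′ on the strand of the gene (RefSeq, GRCh38.p14), at chr14:35404750-35404999 (NFKBIA, minus strand), chr4:76023498-76023747 (CXCL10, minus), chr6:31575315-31575564 (TNF, plus) and chr16:57358533-57358782 (CCL22, plus). Capitals mark each match on either strand to the outline of a kB site, GGG and, after any 5 bases, CC, and overlapping matches run together.
NFKBIA: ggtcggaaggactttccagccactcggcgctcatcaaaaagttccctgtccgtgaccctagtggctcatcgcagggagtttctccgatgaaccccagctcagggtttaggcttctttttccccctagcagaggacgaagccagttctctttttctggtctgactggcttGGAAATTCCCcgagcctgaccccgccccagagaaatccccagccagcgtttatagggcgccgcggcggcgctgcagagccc
CXCL10: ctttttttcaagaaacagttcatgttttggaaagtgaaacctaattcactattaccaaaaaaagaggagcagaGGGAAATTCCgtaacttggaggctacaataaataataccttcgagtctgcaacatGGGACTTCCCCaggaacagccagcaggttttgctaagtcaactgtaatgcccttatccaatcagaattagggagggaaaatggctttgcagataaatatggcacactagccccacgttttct
TNF: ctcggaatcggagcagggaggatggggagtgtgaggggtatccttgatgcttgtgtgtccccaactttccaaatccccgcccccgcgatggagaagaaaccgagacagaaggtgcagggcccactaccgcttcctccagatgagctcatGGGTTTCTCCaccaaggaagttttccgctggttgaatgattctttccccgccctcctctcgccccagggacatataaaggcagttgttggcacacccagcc
CCL22: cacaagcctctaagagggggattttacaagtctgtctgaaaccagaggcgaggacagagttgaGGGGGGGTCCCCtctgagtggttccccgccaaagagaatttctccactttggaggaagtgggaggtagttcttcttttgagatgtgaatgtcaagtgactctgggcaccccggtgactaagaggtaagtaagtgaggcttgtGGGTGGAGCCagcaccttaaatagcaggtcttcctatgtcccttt
The match in NFKBIA began 81 bases before the start, that in TNF 101 bases before it, those in CXCL10 177, 122 and 121 bases before it, and those in CCL22 187, 186, 185 and 45 bases before it. The 3 lower genes printed all held a match, while CXCL13, CD80, GPR183 and PIM2, also lower with agreeing probes, held none in this window. The outline is loose: it occurred in 54.4% of all 35116 promoters of the table and in 68.5% of the 3267 promoters of measured genes that matched. In the 5 NF-kB lists joined it occurred in 41 of 58 (70.7%). A stricter form, the kB consensus, occurred in 8.04% of all promoters, in 9.89% of those of measured genes and in 18 of 58 (31.0%) of those of the 5 NF-kB lists joined, though in 1 of 12 (8.33%) of the survival targets. Of the genes with the 10 largest differences on each side it occurred in 1 of 9 matched lower ones (11.1%) and in 3 of 8 matched higher ones (37.5%). It was found in NFKBIA, CXCL10 and CCL22 and not in this window of TNF. Such matches stood in promoters on both sides of the difference, and a match is a run of letters and no evidence of binding.

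The NF-kB subunits had a median of -0.02 over all 5. NFKB1, the gene of p105 and p50, differed by -0.34 ± 0.10 on 2 probes, though these disagreed on the ratios themselves, at 0.17 and -0.78 without inhibitor and -0.24 and -1.05 with it. RELB, of the alternative pathway, differed by -0.22 ± 0.12, with all 3 probes below 0. RELA (-0.02 ± 0.03), REL (0.02 ± 0.40) and NFKB2 (0.03 ± 0.60) lay near 0. The 5 probes of NFKB2 ran from -0.83 to 0.84 and those of REL from -0.32 to 0.46. REL turned to -0.20 with probes measured on all 4 arrays, and the median of the list became -0.20.

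Of 27 genes of the IKK complex and the steps before it, 20 were measured, with a median of -0.08. Of the 20, 11 lay below 0 (55%), and CHUK alone was past 1.5-fold. Over all genes 48.4% lay below 0, 1.55% were lower and 2.63% higher beyond 1.5-fold. IKBKG, the scaffold NEMO, differed by 0.40 on 1 probe, and IKBKB, the target of the inhibitor, had no value on both arrays. TAB2, an adaptor of the kinase TAK1, was at -0.61 without and -1.09 with inhibitor on 1 probe, and TAK1 itself, MAP3K7, differed by -0.17 ± 0.18. TNFRSF13C, the BAFF receptor, differed by -0.47 on 1 probe, TRAF5 by -0.25 ± 0.19 and MYD88, the adaptor of Toll-like receptors, by -0.17 ± 0.09. MALT1 and BCL10, which act upstream of IKK in lymphocytes, differed by 0.06 ± 0.54 and by -0.17 ± 0.30.

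Among 14 measured survival targets, 7 lay below 0 (50%, 48.4% over all genes) and none was past 1.5-fold. Their median was -0.09, and it was -0.21 over members with 2 or more probes. MYC, a transcription factor of cell growth that stands also in 2 other lists, had 0.05, 0.08, 0.06 and 0.11 without inhibitor and -0.79, -0.52, -0.46 and -0.21 with it. All 4 probes were above 0 on the first array and below 0 on the second, a difference of -0.57 ± 0.21. CCND2, cyclin D2, went from 0.10 and 0.13 to -0.49 and -0.36, and CFLAR, which encodes the caspase-8 inhibitor FLIP, from 0.10 and 0.03 to -0.51 and -0.41. These 3 genes had in common a ratio above 0 without inhibitor and below 0 with it on every probe, which was seen after the fact. Their ratios above 0, from 0.03 to 0.13, were about the size of that array's median absolute deviation of 0.128 or smaller. How many other genes share this change of sign was not counted. BCL2A1, of the BCL2 family, differed by -0.29 ± 0.28 with 4 of 5 probes below 0, PIM2, a survival kinase, by -0.29 ± 0.05, PIM1 by 0.07 ± 0.15 and BCL2L1 by 0.06. JUNB (0.01 ± 0.32) and MCL1 (0.07 ± 0.12) lay near 0, and BIRC3 and GADD45B had no value on both arrays.

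Of 19 surface and adhesion targets, 11 lay below 0 (57.9%, 48.4% over all genes), none was past 1.5-fold, and the median was -0.05. CD80, a costimulatory ligand, differed by -0.43 ± 0.09, GPR183, which guides B cells, by -0.19 ± 0.17 with all 4 probes below 0, and ICAM1 by -0.19 ± 0.21. CXCR4 was the highest, at 0.47 ± 0.30, with all 7 probes between 0.15 and 1.02. CCR7, a homing receptor, was low on both arrays, at -0.79 and -0.77, and its difference was 0.01 ± 0.10. CD83, an activation marker with 11 probes, had a mean of -0.16 and probes from -0.97 to 1.12, while CD44 (-0.09 ± 0.19) and CD58 (0.03 ± 0.13) were near 0.

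**Figure D4:**
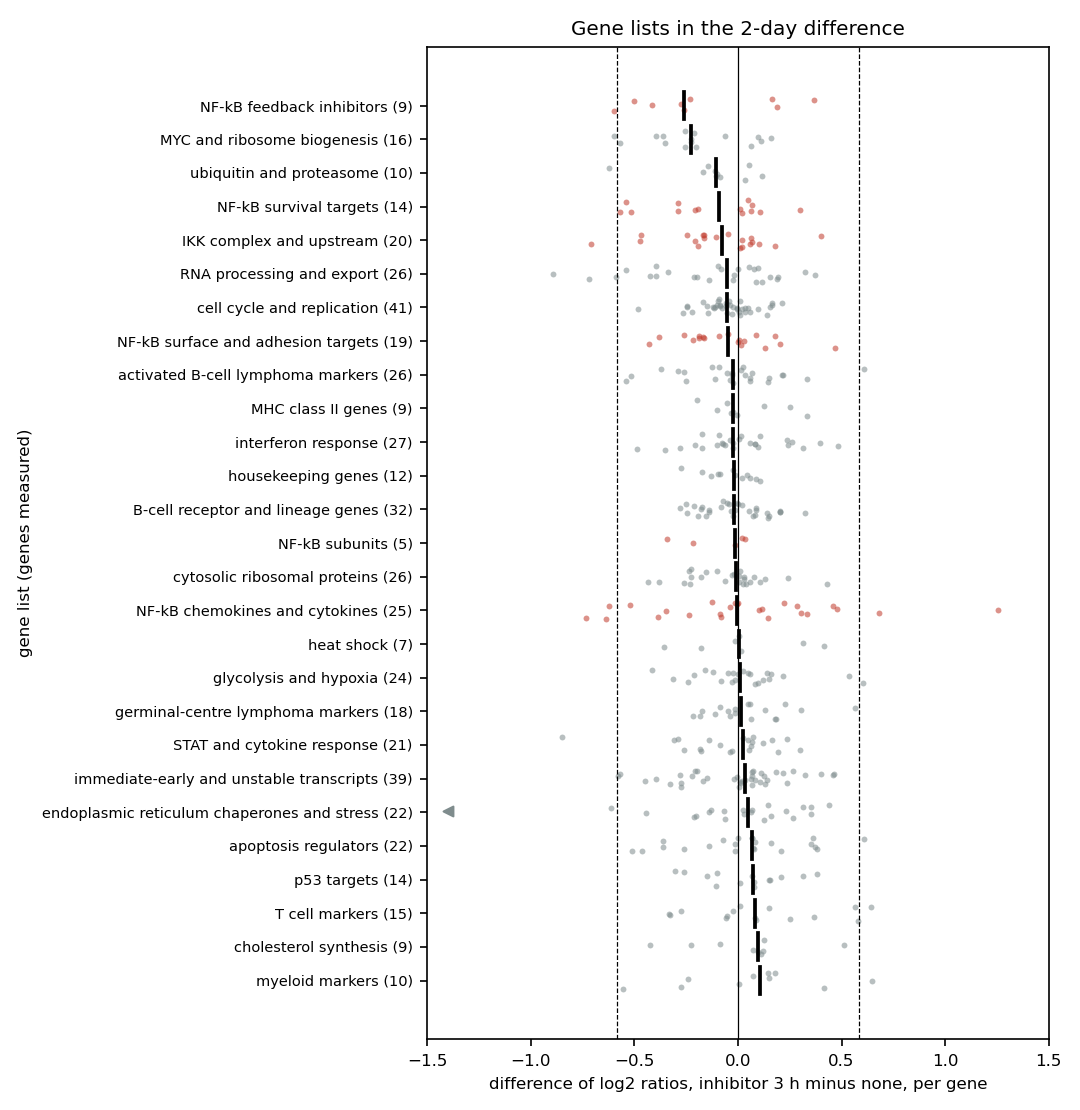
Each point is a measured gene of a list, placed by its 2-day difference (inhibitor 3 h minus none, log2; vertical scatter only separates points), black bars are list medians, dashed lines mark 1.5-fold, and the lists of NF-kB and IKK genes are red; the arrow stands for EDEM1 at -3.51. Medians ran from -0.26 for NF-kB feedback inhibitors and -0.23 for MYC and ribosome biogenesis genes to 0.11 for myeloid markers.

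Immediate-early and unstable transcripts, which turn over fast, formed a list of their own. Their median was 0.04, and 15 of 39 lay below 0 (38.5%, 48.4% over all genes), none past 1.5-fold. ID2, an inhibitor of helix-loop-helix factors, had the lowest value, -0.58 ± 0.06, with probes at 0.26, -0.22 and -0.09 without inhibitor and at -0.37, -0.81 and -0.60 with it. Its relative ID3 stood opposite, at 0.46 ± 0.06, from 0.20 and 0.16 to 0.61 and 0.67. JUN, of the AP-1 factor, differed by 0.46 ± 0.15 with all 3 probes above 0, and ZFP36 by 0.26 ± 0.14. SGK1 (-0.45) had 4 probes all below 0, and DUSP1 (0.07), FOSB (0.13) and EGR1 (-0.17) had probes of both signs.

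MYC and ribosome biogenesis genes had a median of -0.23 over 16 measured of 32 genes. Of the 16, 12 lay below 0 (75%, 48.4% over all genes). These genes were the lowest list after scaling (-0.26) and with the median of probes (-0.24). NOP56, of the snoRNA complex that modifies ribosomal RNA, differed by -0.60 ± 0.11 from a ratio of -0.11, and is the eleventh gene past 1.5-fold with agreeing probes. NOP2 differed by -0.35 ± 0.14 with all 5 probes below 0, ODC1, the first enzyme of polyamine synthesis, by -0.26 ± 0.20 with all 4, and NPM1 (-0.26) and FBL (-0.23) by both of their probes. LDHA (0.16 ± 0.03), MAX (0.11) and ENO1 (0.10) lay above 0. Of 41 cell cycle genes, 27 lay below 0 (65.9%, 48.4% over all genes), none past 1.5-fold, and their median was -0.05. TOP2A, the mitotic topoisomerase, differed by -0.48 ± 0.30, PCNA, the replication clamp, by -0.27 ± 0.08, HMMR by -0.25 ± 0.19 and MCM4 by -0.22 ± 0.30.

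Lymphoma subtype markers had medians near 0. For activated B-cell markers it was -0.03, and 14 of 26 lay below 0 (53.8%, 48.4% over all genes). Beside CCND2, CFLAR and PIM2, which are NF-kB targets as well, IRF4 differed by -0.25 ± 0.15. IRF4, a factor on which this lymphoma type depends, had 4 probes between -0.40 and -0.19 without and between -0.65 and -0.32 with inhibitor. STAT3 was low on both arrays, at -0.46 and -0.49, with a difference of -0.04 ± 0.04, and SH3BP5 (0.33 ± 0.25) stood above 0. Germinal-centre markers had a median of 0.02, 9 of 18 below 0, with LMO2 at -0.17 ± 0.13, MARCKSL1 at -0.11 ± 0.11 and GCSAM at 0.23 ± 0.02. B-cell receptor and lineage genes had -0.02, 18 of 32 below 0, from PTPN6, the phosphatase SHP-1, at -0.28 ± 0.22 to FCRLA at 0.33 ± 0.17. The member past 1.5-fold in these 3 lists was BMF, a BH3-only gene, at 0.61 on 1 probe.

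Cytokine receptor and STAT genes had a median of 0.02. IL2RG was lower by 0.31 ± 0.18 on all 5 probes, while STAT4 (0.30 ± 0.02) and IL10RA (0.19 ± 0.14) were higher, and SOCS2, on 1 probe, stood at -0.85. The median of T cell markers was 0.08, 9 of 15 lay above 0, and GZMA, at 0.64, was past 1.5-fold with probes of both signs. CD7 stood at 0.58 ± 0.50, IL7R at 0.37 ± 0.31, LCK at -0.33 and GATA3 at -0.34 ± 0.05. Myeloid markers had 0.11, 7 of 10 above 0, though 8 of the 10 had 1 probe, MARCO (0.65) among them, and FCGR1A, with 3 probes, stood at -0.24 ± 0.12. Housekeeping genes had -0.02, with 7 of 12 below 0, 5 above it and none past 1.5-fold. Named by the rule were TBP at -0.27 ± 0.17, ACTG1 at -0.17 ± 0.06, HPRT1 at -0.13 ± 0.03 and B2M at -0.10 ± 0.03.

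The 5 lowest values and the 2 highest came from genes with 1 probe. Between these and the next stood TXK, a kinase, at 1.51 from probes of -0.36 and 3.37, which was named after its value was seen. EDEM1, which sends misfolded glycoproteins to disposal, had -0.08 without inhibitor and -3.59 with it, ZNF764 had 0.41 and -1.11, BPI 0.67 and -0.62, ELL2 -0.16 and -1.41 and ITGBL1 0.26 and -0.80. On the other side QSOX2 had -0.10 and 1.99, P2RY13 0.30 and 2.03, WASH5P 0.10 and 1.43, LRP4 -0.08 and 1.21 and IL23A -0.09 and 1.17. Of these 10 genes, ZNF764 and IL23A alone had a value on both 3-day arrays. The share of genes past 1.5-fold was 2.65% lower and 4.31% higher among genes with 1 probe. WASH5P has near-identical copies that its probe may not separate.

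The 3-day pair, with 24 h of inhibitor on 1 array and none on the other, uses 2 further arrays and gives the nearest comparison, but the doxycycline time and the inhibitor time both differ from those of the 2-day pair. Over 3589 genes with probes on all 4 arrays the 2 differences correlated across genes at r = 0.25 (Spearman 0.26), and 2140 genes (59.6%) had the same sign. Genes are not independent replicates, the probes are shared, and whether arrays share an RNA was not stated. Of the 10 genes with 2 or more such probes that were lower by over 1.5-fold at 2 days, 7 had the same sign at 3 days, and of the 9 that were higher all 9 had it, with medians of -0.11 and 0.42 at 3 days. At 3 days 58.7% of all these genes lay above 0. No test of a difference between the pairs was possible with 1 array per condition.

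Over the 5 NF-kB lists joined, 27 of 64 genes with probes on all 4 arrays lay below 0 at 3 days, against 41.3% of all such genes. The median of the 64 was -0.11 at 2 days and 0.04 at 3 days, against -0.0015 and 0.05 over all genes. Over all 72 measured genes of these lists, with all their 2-day probes, the 2-day median was only -0.026. Of the 72, 41 lay below 0 at 2 days (56.9%, against 48.4% over all genes). Gene by gene, several NF-kB targets lay on the same side in both pairs. CXCL10 had -0.52 at 2 days and -0.67 at 3 days on the same 7 probes, NFKBIA -0.60 and -0.48, TNFAIP3 -0.42 and -0.69, CFLAR -0.52 and -0.48, CXCL13 -0.64 and -1.46, CCND2 -0.54 and -0.30, and NFKB1 -0.34 and -0.30. Others lay on opposite sides: TNF had -0.74 and 0.26, ICAM1 -0.19 and 0.23, and NFKBIE -0.28 and 0.09. So did NFKBID, at -0.23 and 0.18, CD80, at -0.43 and 0.02, and CD83, at -0.29 and 0.07. BCL10, which acts upstream of IKK, had -0.17 and 0.96. The ratio of TNF was -0.61 at 3 days without inhibitor and -0.36 with 24 h of it, against -0.09 and -0.83 in the 2-day pair. The 3-day value of BCL10 came from probes at 2.34, 0.36 and 0.17, and its 2-day probes had both signs. For CHUK the difference was -0.71 in the 2-day pair and -0.14 in the other, where its 2 probes stood at -0.29 and 0.02. The median of the feedback inhibitor list was -0.28 at 2 days and 0.09 at 3 days over the same 9 genes, and that of MHC class II genes, which present antigen to T cells, -0.015 and 0.35.

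Genes with 2 or more probes on all 4 arrays were ranked, over those probes, by differences of equal sign in both pairs. Largest on the lower side were CXCL13, CFLAR, CXCL10, NFKBIA and ESCO2, a cohesin acetyltransferase. ESCO2 had -0.50 at 2 days and -0.78 at 3 days over the 3 probes measured at both times. Over all 4 of its 2-day probes it had -0.43 ± 0.39, from -0.90 to -0.01. On the higher side the largest were C9orf164, ST3GAL1, PPP4R3B, MYO18A and ZFAND6. Over probes on all 4 arrays C9orf164 had 0.69 at 2 days and ZFAND6 0.61, but over all their 2-day probes 0.19 and 0.22. Without its farthest probe C9orf164 stood at -0.60. Of these 5, ST3GAL1 and PPP4R3B had 2-day probes of the same sign, and those of C9orf164 (-0.81 to 1.77), MYO18A (-0.09 to 1.88) and ZFAND6 (-0.57 to 0.85) did not agree.

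**Figure D5:**
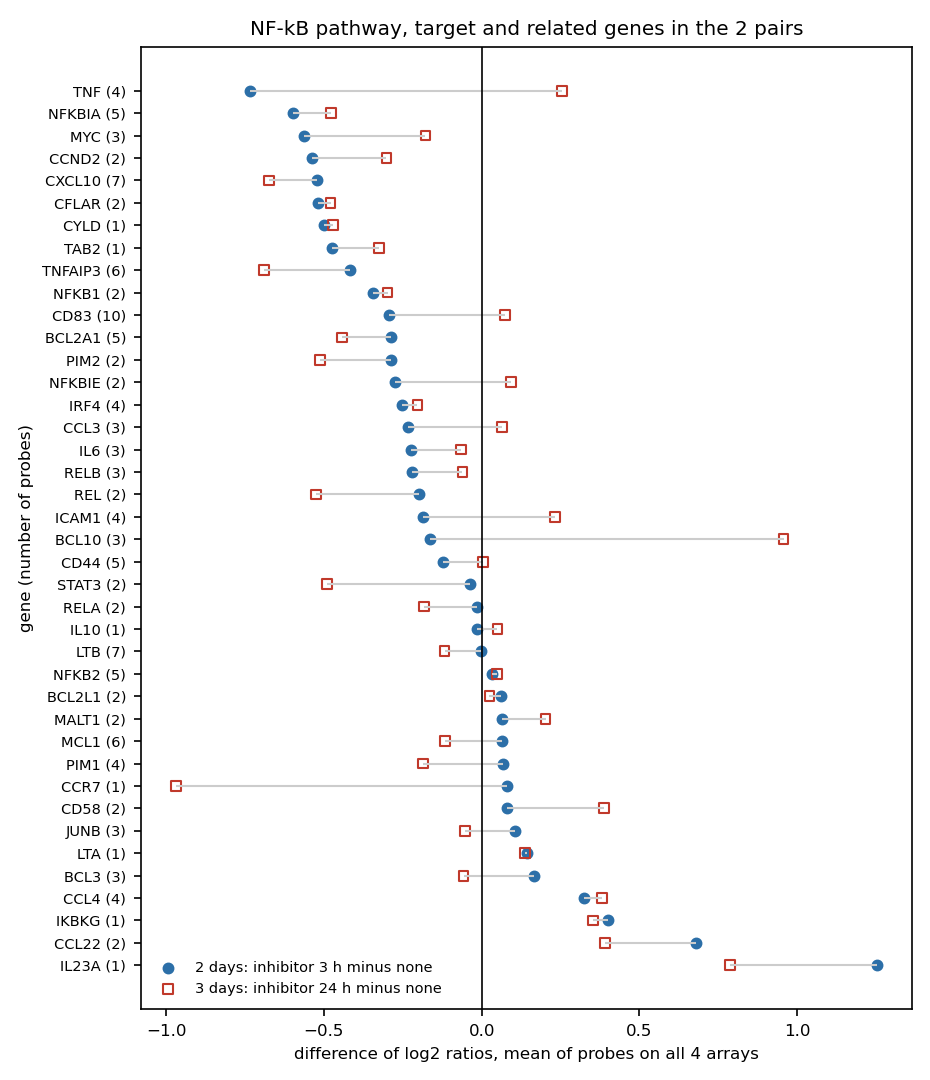
For NF-kB pathway, target and related genes with probes on all 4 arrays (number in brackets), filled circles give the 2-day difference (inhibitor 3 h minus none) and open squares the 3-day difference (inhibitor 24 h minus none), as means of the same probes on the log2 scale. NFKBIA, CXCL10, CFLAR and TNFAIP3 lie below 0 in both, while TNF, at -0.74 and 0.26, and BCL10, at -0.17 and 0.96, cross it.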

How the data were processed

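The deposited values are the authors' log2 ratios between channels for each probe on each array, with base 2 assumed. Their scanner, background correction, normalization and spot filter were, for all arrays, not given in the sources used here, and array medians lay near 0. Cy5 and Cy3 channels follow the labels. Probes were named from GEO's platform annotation, updated through gene identifiers to RefSeq symbols (GRCh38.p14): of 15246 probes 10169 had 1 symbol, 4 had several and 5073 none, and 10128 matched RefSeq, while 41 kept their listed symbol.

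Per probe, the ratio without inhibitor was subtracted from the ratio with 3 h of inhibitor, and probes of a gene were averaged, in Python 3.11.15 with pandas 2.3.3 and numpy 2.4.6. With 1 array per condition no test was made. Sizes beyond 1.5-fold were counted. Signal over background is unknown. The number of arrays limits the precision. The averaging was tested on simulated data.

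The members and the 27 gene lists were chosen with earlier results of these data known. Named genes are CHUK, the 10 largest differences in each direction among genes whose probes agreed in sign, the 5 largest single-probe genes in each direction, 46 genes of the pathway and its targets, up to 4 members of each list whose probes agreed and otherwise up to 2, and the 5 largest in each direction in both pairs. Other list members were named after their values were seen. Alternatives were centring, scaling to equal spread, medians of probes, probes on all 4 arrays, genes with 2 or more probes, single probes, the farthest probe left out and a 2-fold limit. A kB motif was searched in the 250 bases before each start.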

Additional observations from a re-analysis of the deposited data

Results flagged for a closer look

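ZNF764, on 1 probe, was lower with inhibitor at 2 days (-1.52) and higher at 3 days (0.87). This opposite direction was not tested.

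Among the 3649 probes without a gene symbol, which enter no gene value, the most extreme of the pair had a log2 ratio of 0.22 without inhibitor and -5.61 with it, a difference of -5.83, and no value on either 3-day array. Of these probes 119 were lower and 149 higher beyond 1.5-fold, 7.34%, against 6.54% of the probes with 1 gene.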

How the results depend on the processing

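No replicate could be left out, since each condition was 1 array, and no value has a test. No paired analysis was possible because no condition has a second array. Counts beyond 1.5-fold depended on the rule: the 62 lower genes became 41 after scaling both arrays to equal spread (31 of them shared), 11 with genes of 2 or more probes, 6 at 2-fold and 340 as single probes. The 105 higher genes became 62 with probes on all 4 arrays, 22 with genes of 2 or more probes, 13 at 2-fold and 452 as single probes. Among genes with 2 or more probes, the 11 lower became 3 after scaling and 0 at 2-fold, and the 22 higher became 9 with probes on all 4 arrays and 2 at 2-fold.

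Scaling brought CHUK to -0.35 and CCL22 to 1.04. None of the alternatives run turned the sign of a named gene past 1.5-fold, but after scaling 21 of 32 such genes were still past it. Medians moved by more than the probe error of a list as follows. After scaling, NF-kB feedback inhibitors stood at -0.15, activated B-cell markers at 0.043, ribosomal proteins at -0.12, glycolysis genes at 0.0903 and housekeeping genes at 0.0694. With probes on all 4 arrays, NF-kB subunits and survival targets stood at -0.20 and -0.21. With genes of 2 or more probes, survival targets stood at -0.21, ubiquitin and proteasome genes at 0.0053 and myeloid markers at -0.12. The median of all genes was 0.013 after centring, 0.0203 after scaling, -0.0015 with probes on all 4 arrays and 0.0018 with genes of 2 or more probes.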

Other observations

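For the lists of the cell's basic machinery given here, median differences in the 2-day pair ran from -0.10 to 0.10. Cytosolic ribosomal protein genes had ratios with medians of 0.18 without and 0.16 with inhibitor and a median difference of -0.01, with 13 of 26 below 0. After scaling to equal spread their median difference was -0.12. RPS16 (-0.23) and RPS4X (-0.18 ± 0.04, 4 probes) lay below 0 and RPL5 (0.13 ± 0.06, 4 probes) and RPL37 (0.43 ± 0.40) above it. Their transcripts have many near-identical copies, which probes may not separate. Glycolysis and hypoxia genes had 0.01, with the oxygen sensor EGLN1 at -0.42 ± 0.24, PFKL at -0.24 and ALDOC at 0.22 ± 0.05. Cholesterol synthesis genes had 0.10, with CYP51A1 at 0.12 ± 0.18 and SQLE at 0.13 ± 0.11, and heat shock genes 0.005, with HSP90AA1 at -0.18 ± 0.16. Ubiquitin and proteasome genes had -0.10, with 7 of 10 below 0 (70%, 48.4% over all genes) and the lowest at -0.62. PSMD14 stood at 0.12 ± 0.12. RNA processing and export genes had -0.05, with 15 of 26 below 0 (57.7%). Of the 26, 3 were lower by over 1.5-fold, against 1.55% over all genes. These were NMD3 (-0.90), DHX15 (-0.72) and THOC1 (-0.59), which rested on 1 probe each.

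Apoptosis regulators had a median of 0.07. Cytochrome c, CYCS, was lower (-0.51 ± 0.02), while the initiator caspase CASP8 (0.36 ± 0.11, 3 probes), the BH3-only gene BIK (0.37 ± 0.25) and APAF1 (0.35 ± 0.33) were higher, each with all probes on its side. p53 targets had 0.07, with CDKN1A at 0.31 ± 0.21 and MDM2 at -0.10 ± 0.14. Interferon response genes had -0.02, with ISG15 at 0.31 ± 0.09 and MX1 at 0.08 ± 0.05 above 0 and the immunoproteasome subunit PSMB9 (-0.28 ± 0.01) and GBP2 (-0.21 ± 0.20) below it. Genes of endoplasmic reticulum stress had 0.05, where HSP90B1 (-0.61) and MANF (-0.20 ± 0.12) lay opposite DDIT3 (0.35 ± 0.32) and DNAJB9 (0.26 ± 0.24).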
